A study of Mus musculus with 7 samples.

Results

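The DNA replication and S-phase repair genes are 41 of the 24328 gene symbols measured in mouse kidney. They were taken by name for their roles: licensing of replication origins, activation of the replicative helicase, DNA synthesis, nucleotide supply, control of the step from G1 into S phase, chromatin assembly behind the fork, and the S-phase checkpoint with repair of broken forks. The LBR-null group comprised 3 mice homozygous for Lbric-J, a loss-of-function allele of the gene for the lamin B receptor, an inner nuclear membrane protein that tethers heterochromatin, and the WT group was 1 Lbr+/+ littermate. All were C57BL/6J mice of 4 weeks, and the allele is carried in the germline, so every tissue of an LBR-null mouse has it. The study describes LBR-null mice as small with sparse fur, so body growth and genotype cannot be told apart in this comparison. LBR-null mice 4001 and 4007 and WT mouse 4009 gave 2 poly(A) RNA-seq libraries each from the right kidney, and LBR-null mouse 4002 gave 1. Values below are normalized counts, that is, reads on a gene divided by a size factor for the depth of the library, and each library had 20694016 to 26333284 reads on genes. A group value is the mean over mice after libraries were averaged within a mouse, with its SD over 3 LBR-null mice, and p-values measure only the spread between these mice, since the spread between WT mice is unknown.

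Before a cell can copy its genome, the origin recognition complex, CDC6 and CDT1 load a ring of 6 MCM proteins onto DNA, and geminin then blocks further loading. In S phase CDC45 and the GINS complex turn that ring into the active helicase, polymerases copy both strands around the PCNA clamp, and enzymes such as ribonucleotide reductase, thymidine kinase and thymidylate synthase supply the nucleotides. Many of these genes are switched on together by E2F transcription factors, and their RNA marks dividing cells. The kidney of a young mouse is still growing, and few of its cells divide later in life.

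All 41 members had a mean of at least 5 normalized counts and entered the test over 17283 genes, and the lowest value of any member in any library rested on 7 reads. Of them, 10 were at least 2-fold lower in LBR-null than in WT kidney and 0 were at least 2-fold higher, beside 7.04% and 14.5% of all genes tested. The 10 were the helicase subunits Mcm2, Mcm3 and Mcm5, the nucleotide enzymes Tyms and Tk1, the regulators E2f1, E2f8 and Ccne1, and the checkpoint genes Clspn and Chek1. Every LBR-null library lay below both WT libraries for 23 members and above both for 2, against 25.7% and 25.5% of all genes, and the libraries overlapped for 16. The median log2 fold change of the members was -0.43, and that of all genes tested was 0.01. The lower level was thus not shared by all members: the log2 fold change ranged from -2.33 for Mcm5 to 0.55 for Ccne2.

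limma, applied to the mouse means as log2(normalized counts + 1) with Benjamini-Hochberg adjustment over all genes, called 0 members at an adjusted p under 0.05 with a 2-fold change, and it called 0% of all genes. Without adjustment, 12 members had a p under 0.05 and a lower level, against 8.05% of all genes, and 0 had a higher level, against 10.7%. edgeR on the recovered reads called 0 members, with 0.156% of all genes called lower. DESeq2 called 6 members, all lower, among 3.48% of all genes called lower, namely Mcm2, Mcm3, Mcm5, Tyms, Tk1 and E2f1. The limma count depended on single mice: without LBR-null mouse 4001 it called Mcm2, Mcm3, Mcm5 and Tk1, when 3.48% of all genes were called lower, and without LBR-null mouse 4002 it called Mcm5 and Tk1, when 1.85% were.

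The LBR-null mice resembled each other more than the WT mouse in these genes. The median absolute log2 difference over the 41 members was 0.24 to 0.39 between LBR-null mice, 0.53 to 0.55 between an LBR-null and the WT mouse, and 0.07 to 0.20 between the 2 libraries of a mouse. Such differences over all genes were not computed, and with 1 WT mouse the difference between WT mice is unknown. Mouse 4001 lay below WT for 32 members, mouse 4002 for 35 and mouse 4007 for 30, where 49.3%, 49% and 49.4% of all genes tested did. In all, 26 members were below WT in every LBR-null mouse, beside 32.3% of all genes, and 8 of them were so by at least 2-fold in each, beside 4.02%. Above WT in every LBR-null mouse were 3 members (Orc6, Gmnn and Brca2), beside 33.7% of all genes.

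**Figure D1:**
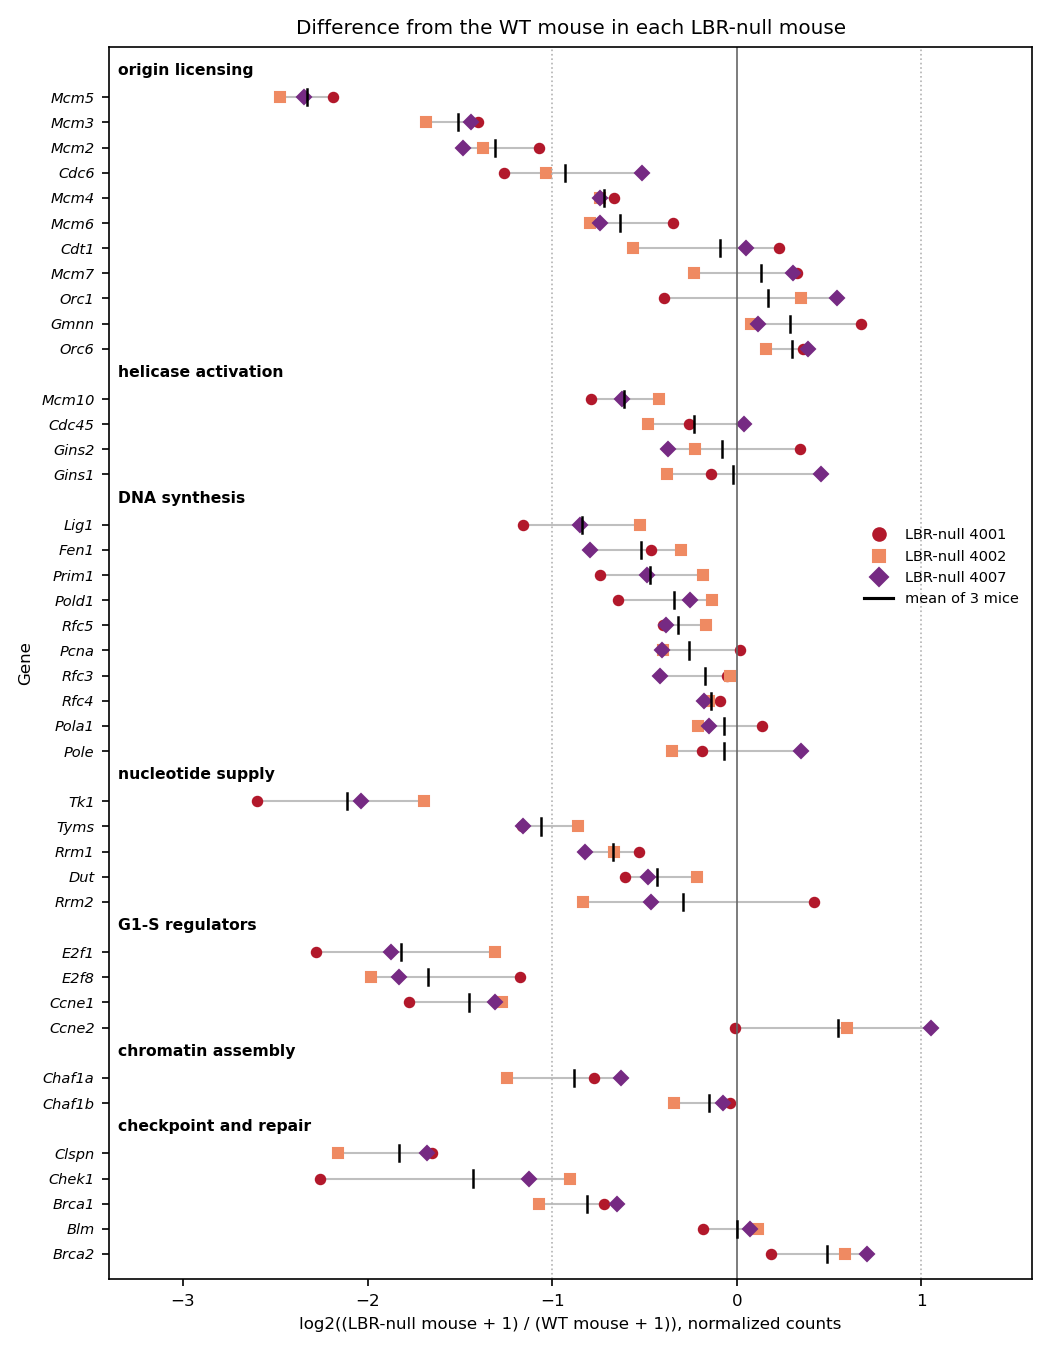
log2 ratio of each LBR-null mouse to the WT mouse for the 41 members, on normalized counts + 1, grouped by role. Each symbol is 1 mouse, the black tick is the mean of the 3, and dotted lines mark 2-fold. Mcm5 and Tk1 lie farthest left, at means of -2.33 and -2.11, and Ccne2 farthest right, at 0.55.

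Of the 11 members of origin licensing, 3 were at least 2-fold lower, 6 had every LBR-null library below both WT libraries and 2 had every one above. For all genes tested these shares were 7.04%, 25.7% and 25.5%. Mcm5 (chr8:77633427-77652338, + strand, mm9), a subunit of the MCM ring, had 73.5 and 79.9 normalized counts in the libraries of mouse 4001, 62.8 in that of mouse 4002, 61.5 and 75.7 in those of mouse 4007, and 355 and 350 in the WT libraries. The LBR-null libraries all sat far below WT and close to each other. The group values were 69.3 ± 6.99 (SD, n = 3) and 353, which is 5.09-fold lower, with a log2 fold change of -2.33 (SE 0.34, limma adjusted p = 0.0843, DESeq2 adjusted p = 3.02e-07). This was the lowest limma adjusted p of any member, and the lowest over all genes was 0.0533. Only 1.13% of the genes tested had a log2 fold change below that of Mcm5.

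Mcm3 (chr1:20793055-20810359, - strand) had 157 and 178 normalized counts in mouse 4001, 138 in mouse 4002, 176 and 151 in mouse 4007, and 447 and 446 in WT, a log2 fold change of -1.51 (SE 0.30, limma adjusted p = 0.103). Mcm2 (chr6:88833469-88848774, - strand) had 265 and 236, then 203, then 206 and 170 in the same LBR-null mice, and 515 and 541 in WT, a log2 fold change of -1.31 (SE 0.30, limma adjusted p = 0.114). Mcm4 differed less, with 288 and 235, 249, and 244 and 253 in the LBR-null libraries and 412 and 421 in WT (log2 fold change -0.72, SE 0.27, limma adjusted p = 0.224). For these 3 subunits no LBR-null library reached the lower of the WT libraries. Mcm6 was lower in LBR-null kidney by the group means, at 544 ± 96.7 (SD, n = 3) against 834. Mcm7 was not: its group values were 826 ± 169 (SD, n = 3) and 741, with mouse 4002 at 631 and mice 4001 and 4007 at 931 and 916.

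The 6 subunits enter the ring in equal number, so their levels per kb of transcript were set side by side. In the WT mouse they ranged from 103 normalized counts per kb for Mcm5 to 250 for Mcm7, a ratio of 2.43. In the LBR-null mice Mcm5 was again the lowest and Mcm7 the highest, and the ratio was 14, 11.6 and 15.4 in mice 4001, 4002 and 4007. The ratio of Mcm5 to Mcm2 per kb was 0.658 in WT and 0.301, 0.305 and 0.36 in the LBR-null mice. Mcm7 shared 8.7% of its exon bases with genes on the opposite strand, Ap4m1 and Cops6, and the sources used here do not say whether counting used strand, so part of its count may belong to them.

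**Figure D2:**
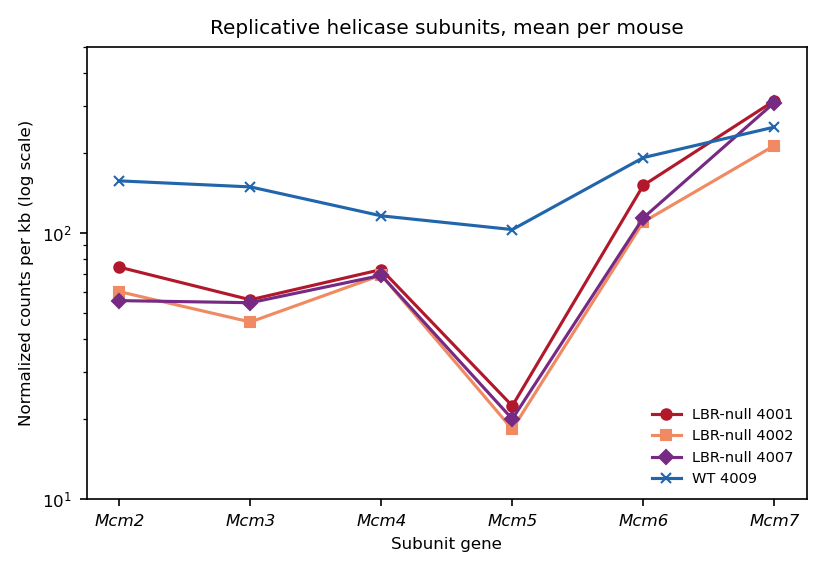
Normalized counts per kb of the longest coding transcript for the 6 helicase subunits, as the mean per mouse on a log axis. The LBR-null mice follow one another and dip at Mcm5, to between 18.3 and 22.4, where the WT mouse is at 103.

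Among the loading factors, Cdc6, which brings MCM to the origin, was just short of the 2-fold limit, with 20.4, 24.1 and 35 normalized counts in the LBR-null mice and 50.3 in WT. Cdt1 (chr8:125091915-125097028, + strand), its partner in loading, had 216 and 188 in mouse 4001, 116 in mouse 4002, 145 and 211 in mouse 4007, and 169 and 175 in WT. The groups overlapped on both sides, and the log2 fold change of -0.09 (SE 0.40, limma adjusted p = 0.929) became 0.14 without mouse 4002. Geminin (Gmnn), the inhibitor of CDT1, was the most abundant loading regulator per kb, and its LBR-null libraries, from 546 to 959, were all above the WT values of 518 and 525. Mouse 4001 supplied most of that range, and the other mice, at 549 and 564, were close to WT at 521 (log2 fold change 0.29, SE 0.32, limma adjusted p = 0.678). Orc6 had 341, 297 and 348 in the LBR-null mice and 266 in WT, the only other member with every LBR-null library above WT. Orc1, of the same origin recognition complex, was at 42.8, 72.2 and 82.9 against 56.5, on either side of WT.

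Of the 4 genes that activate the helicase, 0 were at least 2-fold lower, beside 7.04% of all genes tested. Every LBR-null library lay below WT for 1 of the 4, beside 25.7% of all genes. That gene, Mcm10, which helps start unwinding, had 66.6 and 70.1 normalized counts in mouse 4001, 88.6 in mouse 4002, 89.4 and 64.7 in mouse 4007, and 109 and 128 in WT (log2 fold change -0.61, SE 0.37, limma adjusted p = 0.426). The GINS subunit Gins1 had 66.6 and 71.9, 58.5, and 109 and 101 in the same mice and 74.8 and 77.8 in WT. Mouse 4007 lay above WT and the other LBR-null mice below it, and the log2 fold change was -0.02 (SE 0.45, limma adjusted p = 0.987). Cdc45 was at 77.4 ± 14.2 (SD, n = 3) against 90.3 and Gins2 at 82.7 ± 23.2 against 85.6. Gins2 shared 67.32% of its exon bases with Gse1 on the opposite strand, so its values are uncertain.

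The 10 genes of DNA synthesis had 0 members at least 2-fold lower and 5 with every LBR-null library below WT. The matching shares of all genes tested were 7.04% and 25.7%. All 10 members had a log2 fold change below 0, beside 49.5% of all genes, and their median was -0.29. Lig1 (chr7:13862632-13896782, + strand), the ligase that joins Okazaki fragments, differed most, with 203 and 197 normalized counts in mouse 4001, 310 in mouse 4002, 248 and 248 in mouse 4007, and 457 and 438 in WT (log2 fold change -0.84, SE 0.34, limma adjusted p = 0.247). Its LBR-null libraries stayed below WT without overlap. Fen1, the nuclease that trims those fragments, was at 202 ± 34.2 (SD, n = 3) against 287, but 84.19% of its exon bases lie in genes on the opposite strand. Prim1, the primase that starts each fragment, was at 246 ± 48.4 against 337. Pold1, the catalytic subunit of polymerase delta, had 193, 275 and 253 against 302, and the clamp loader subunit Rfc5 had 296, 347 and 299 against 390.

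The clamp itself, Pcna, was the most abundant member, and it overlapped: mouse 4001 had 1630 normalized counts, above the WT value of 1607, and mice 4002 and 4007 had 1219 and 1214. Pole (chr5:110715325-110766493, + strand), the catalytic subunit of polymerase epsilon, had 134 and 134, 120, and 191 and 200 in the LBR-null libraries and 131 and 175 in WT, on both sides of it (log2 fold change -0.07, SE 0.39, limma adjusted p = 0.950). Pola1, of the polymerase that extends primers, was at 126 ± 16.4 (SD, n = 3) against 132. The clamp loader subunits Rfc3 and Rfc4 were at 242 ± 34.5 against 271 and 93.5 ± 3.05 against 103.

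Nucleotide supply held the second largest difference. Tk1 (chr11:117676840-117687406, - strand), the thymidine kinase of dividing cells, had 49.4 and 62.1 normalized counts in mouse 4001, 105 in mouse 4002, 92.2 and 72.9 in mouse 4007, and 326 and 357 in WT. Its highest LBR-null library was far below the lower WT library. The group values were 81.1 ± 24.6 (SD, n = 3) and 342, or 4.21-fold lower (log2 fold change -2.11, SE 0.44, limma adjusted p = 0.107, DESeq2 adjusted p = 0.000701). Tyms, which makes thymidylate, had 263 and 244, 312, and 266 and 242 in the LBR-null libraries and 559 and 574 in WT, without overlap (log2 fold change -1.06, SE 0.28, limma adjusted p = 0.129, DESeq2 adjusted p = 0.0315). Dut, the dUTPase that keeps uracil out of DNA, was at 445 ± 63.2 (SD, n = 3) against 597.

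Ribonucleotide reductase makes deoxynucleotides and has a large and a small subunit. Rrm1, the large subunit, had 468 and 493 normalized counts in mouse 4001, 436 in mouse 4002, 382 and 401 in mouse 4007, and 680 and 705 in WT, with every LBR-null library below WT (log2 fold change -0.67, SE 0.26, limma adjusted p = 0.238). Rrm2, the small subunit that accumulates in S phase, had 545 and 481, 215, and 303 and 254 in those libraries and 391 and 377 in WT. Mouse 4001 lay above WT and the other LBR-null mice below it (log2 fold change -0.29, SE 0.49, limma adjusted p = 0.792). The ratio of Rrm2 to Rrm1 was 1.07, 0.493 and 0.711 in mice 4001, 4002 and 4007, and 0.554 in WT, so the LBR-null mice lay on both sides of WT. The difference between the subunits was not tested.

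**Figure D3:**
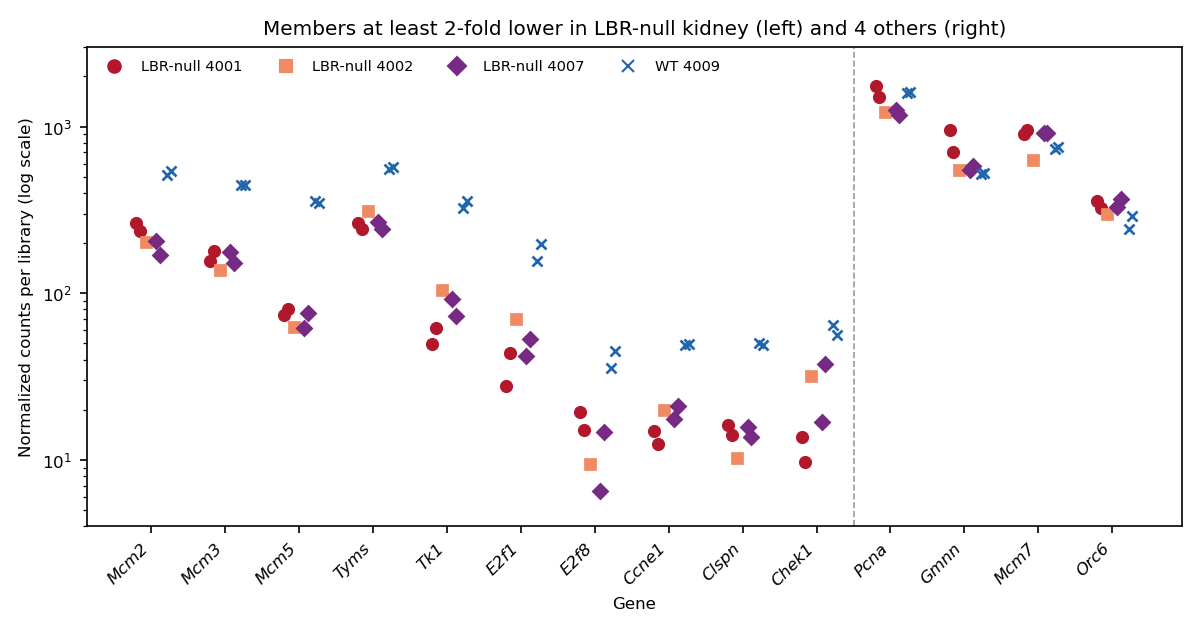
Normalized counts in each of the 7 libraries on a log axis, with LBR-null mice as filled symbols and the WT mouse as crosses. The 10 members at least 2-fold lower (left of the dashed line) show every LBR-null library below both WT libraries. Pcna and Mcm7 overlap WT, and Gmnn and Orc6 lie above it.

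Of the 4 regulators of entry into S phase, 3 were at least 2-fold lower, beside 7.04% of all genes tested. E2f1 (chr2:154385143-154395628, - strand), a transcriptional activator of replication genes, had 27.6 and 43.5 normalized counts in mouse 4001, 70.5 in mouse 4002, 41.9 and 52.9 in mouse 4007, and 156 and 196 in WT (log2 fold change -1.82, SE 0.48, limma adjusted p = 0.128, DESeq2 adjusted p = 0.0188). E2f8, an atypical family member that represses, had 19.5 and 15.1, 9.46, and 6.52 and 14.6 in those libraries and 35.4 and 45.2 in WT (log2 fold change -1.67, SE 0.56, limma adjusted p = 0.185). The activator and the repressor thus stood below WT together in every library, at low counts.

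The E-type cyclins, partners of CDK2 in starting S phase, parted. Ccne1 (chr7:38883003-38892553, - strand) had 14.9 and 12.4 normalized counts in mouse 4001, 19.8 in mouse 4002, 17.7 and 21 in mouse 4007, and 48.8 and 49.8 in WT, without overlap (log2 fold change -1.45, SE 0.49, limma adjusted p = 0.187). Ccne2 (chr4:11118498-11131926, + strand) had 52.8 and 50.6, 79.1, and 97.8 and 120 in those libraries and 42.5 and 61.5 in WT. Mouse 4001 lay between the WT libraries, and mice 4002 and 4007 were above both (log2 fold change 0.55, SE 0.50, limma adjusted p = 0.605). The ratio of Ccne2 to Ccne1 was 3.78, 4 and 5.64 in mice 4001, 4002 and 4007 and 1.06 in WT. The difference between the cyclins was not tested. Ccne2 shared 17.42% of its exon bases with Ints8 on the opposite strand.

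Chromatin assembly factor CAF-1 places histones on new DNA. Its subunit Chaf1a had 104 and 79.9 normalized counts in mouse 4001, 66.2 in mouse 4002, 108 and 95.7 in mouse 4007, and 157 and 158 in WT, with every LBR-null library below WT (log2 fold change -0.88, SE 0.39, limma adjusted p = 0.299). Chaf1b had 175 and 138, 126, and 156 and 148 in those libraries and 166 and 153 in WT, on both sides of WT (log2 fold change -0.15, SE 0.33, limma adjusted p = 0.848).

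In the checkpoint and repair group, 2 of 5 members were at least 2-fold lower, beside 7.04% of all genes tested. Claspin (Clspn; chr4:126234179-126271147, + strand), which carries the stalled-fork signal to CHK1, had 16.1 and 14.2 normalized counts in mouse 4001, 10.3 in mouse 4002, 15.8 and 13.7 in mouse 4007, and 50.4 and 48.9 in WT (log2 fold change -1.83, SE 0.51, limma adjusted p = 0.136). Chek1, the gene of that kinase, had 13.8 and 9.76, 31.8, and 16.8 and 37.4 in those libraries and 64.6 and 56.1 in WT. All lay below WT, yet the libraries of mouse 4007 differed from each other by 1.11 on the log2 scale, the largest such gap among the members (log2 fold change -1.43, SE 0.64, limma adjusted p = 0.298). Of the homologous recombination genes, Brca1 was at 34.4 ± 5.28 (SD, n = 3) against 60.7, below WT in every library, and Brca2 was at 173 ± 30.8 against 121, above WT in each mouse but with 1 library of mouse 4001, at 121, inside the WT values of 127 and 116. The helicase Blm had 65.5 and 90.5, 96.3, and 75.4 and 111 in the LBR-null libraries and 89.8 and 87.7 in WT, and a log2 fold change of 0.00 (SE 0.36, limma adjusted p = 0.999).

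The letters of an E2F site were sought in the promoters of the members, taken from RefSeq (GRCm38.p6) from 250 bases before to 50 after each start, and 35 of the 41 members were in that table. The words TTTCCCGC, TTTCGCGC, TTTGCCGC and TTTGGCGC on either strand were held by 13 of these 35 members (37.1%) and by 2.6% of all 27025 genes of the table. Among the members whose LBR-null libraries were all below WT, 7 of 22 held one (31.8%), and among the others 6 of 13 did (46.2%). The CCAAT box, CCAAT on either strand, was held by 57.1% of members and 41.1% of all, and the CHR element, TTTGAA or TTCGAA, by 17.1% and 21.7%. A gene with several listed starts counted if any window held the letters, which was so for 3 members, and the windows of E2f1 and Dut hold 188 and 130 coding bases. These are matches of letters and not binding sites.

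Below are 280 bases of 5 promoters, from 250 before to 30 after the listed start, with mm9 positions from an exact and single match to that genome. The first 4 belong to the members with the largest difference among those with 1 listed start, within 35 bases of an annotated one, and no coding bases in the window, which leaves out Tk1 and E2f1, and Rfc3 is a member near WT that holds the same letters. Capitals mark E2F words, and the run of 12 capitals in Mcm5 is a pair of such words that overlap, one on each strand.
Mcm5, chr8:77633158-77633437, + strand: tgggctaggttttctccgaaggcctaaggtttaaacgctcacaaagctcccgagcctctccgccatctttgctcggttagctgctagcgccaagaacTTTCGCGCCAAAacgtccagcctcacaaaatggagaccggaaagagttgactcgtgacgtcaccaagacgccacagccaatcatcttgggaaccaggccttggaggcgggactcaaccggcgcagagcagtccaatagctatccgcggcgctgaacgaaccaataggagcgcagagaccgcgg
Clspn, chr4:126233974-126234253, + strand: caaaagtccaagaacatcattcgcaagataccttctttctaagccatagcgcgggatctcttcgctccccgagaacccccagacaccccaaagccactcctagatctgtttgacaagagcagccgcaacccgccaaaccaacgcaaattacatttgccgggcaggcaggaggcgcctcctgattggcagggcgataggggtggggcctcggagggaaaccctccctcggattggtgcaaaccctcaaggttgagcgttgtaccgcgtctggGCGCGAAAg
E2f8, chr7:56136937-56137216, - strand: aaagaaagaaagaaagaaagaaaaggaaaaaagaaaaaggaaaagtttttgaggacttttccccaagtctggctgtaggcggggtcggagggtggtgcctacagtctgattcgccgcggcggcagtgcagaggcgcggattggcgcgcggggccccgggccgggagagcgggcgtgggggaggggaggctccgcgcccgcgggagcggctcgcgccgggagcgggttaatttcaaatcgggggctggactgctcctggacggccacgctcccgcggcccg
Mcm3, chr1:20810364-20810643, - strand: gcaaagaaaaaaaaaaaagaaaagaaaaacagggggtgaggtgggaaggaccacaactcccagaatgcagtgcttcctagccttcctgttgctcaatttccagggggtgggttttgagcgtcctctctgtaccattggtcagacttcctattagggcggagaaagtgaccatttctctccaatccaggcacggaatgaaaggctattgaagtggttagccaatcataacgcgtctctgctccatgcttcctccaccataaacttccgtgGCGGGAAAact
Rfc3, chr5:152453754-152454033, - strand: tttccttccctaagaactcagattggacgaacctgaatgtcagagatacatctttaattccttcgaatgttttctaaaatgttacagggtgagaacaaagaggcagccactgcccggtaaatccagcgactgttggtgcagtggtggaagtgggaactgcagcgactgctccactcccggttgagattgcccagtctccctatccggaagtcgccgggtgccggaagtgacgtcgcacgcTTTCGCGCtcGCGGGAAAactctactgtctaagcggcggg
In Mcm5 the words run from -153 to -142 relative to the start, in Clspn from 22 to 29 and in Mcm3 from 20 to 27. Mcm3 has 2 matches in the longer window used for the counts, and the other lies past the printed bases. Rfc3, at 242 ± 34.5 (SD, n = 3) against 271 normalized counts, has 2 words, from -10 to -3 and from 1 to 8, and E2f8, with the lower level described above, has 0 in its window. Both kinds of member, those far below WT and those near it, thus held these words.

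Related lists place the members among other cell cycle and repair genes. Over all genes tested, 7.04% were at least 2-fold lower and 14.5% at least 2-fold higher. Of 35 other replication genes, 3 were at least 2-fold lower, near that background, and 0 higher, with a median log2 fold change of -0.16. The 3 were Pole2, of polymerase epsilon, at 50.7 ± 8.33 (SD, n = 3) against 113, Cdc7, the kinase that fires origins, at 40.6 ± 16.3 against 87.8, and Dscc1, of a clamp loader for cohesion, at 11.8 ± 0.853 against 26.9. Of 17 other S-phase repair genes, 2 were at least 2-fold lower, with a median of -0.06. Of 17 other E2F, cyclin and histone supply genes, 5 were at least 2-fold lower, with a median of -0.58, among them cyclin A2 (Ccna2), at 23.8 ± 5.49 against 185, the histone chaperone Asf1b, at 20.1 ± 1.93 against 79.7, and E2f7, at 10.2 ± 5.67 against 32.9. limma and edgeR called 0 genes of these lists. At an unadjusted limma p under 0.05 the lists had 5, 2 and 6 genes lower and 0 higher, where 8.05% of all genes tested were lower and 10.7% higher, and DESeq2 called 4 genes, all lower and all in the E2F, cyclin and histone supply list.

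Genes of mitosis stood lower than the members by their median, a difference that was not tested. Of 18 G2-M genes, 17 were at least 2-fold lower, 17 had every LBR-null library below both WT libraries, and the median log2 fold change was -2.36. The proliferation marker Mki67 had 85.4 ± 37.2 normalized counts (SD, n = 3) against 1052, the centromere gene Cenpf 17.6 ± 14.4 against 222, and the ubiquitin enzyme Ube2c 15.9 ± 7.1 against 237. The exception was Bub1b, named after its value was seen, at 221 ± 44.3 against 194. limma called 0 of the 18, with 17 at an unadjusted p under 0.05, and DESeq2 called 16, all lower. Of all genes tested, 7.04% were at least 2-fold lower, 25.7% had every LBR-null library below WT and 8.05% were lower at that p. DESeq2 called 3.48% of genes lower. Over 18 genes of DNA repair outside S phase, 1 was at least 2-fold higher and 0 lower, with a median of -0.07. That gene was Xpa, of nucleotide excision repair, at 1058 ± 244 against 415, while Lig4 and Mgmt, for end joining and for repair of alkylated guanine, were at 197 ± 72.4 against 359 and 67.9 ± 17.2 against 119. In bulk tissue, fewer dividing cells and less of these RNAs per dividing cell cannot be told apart.

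**Figure D4:**
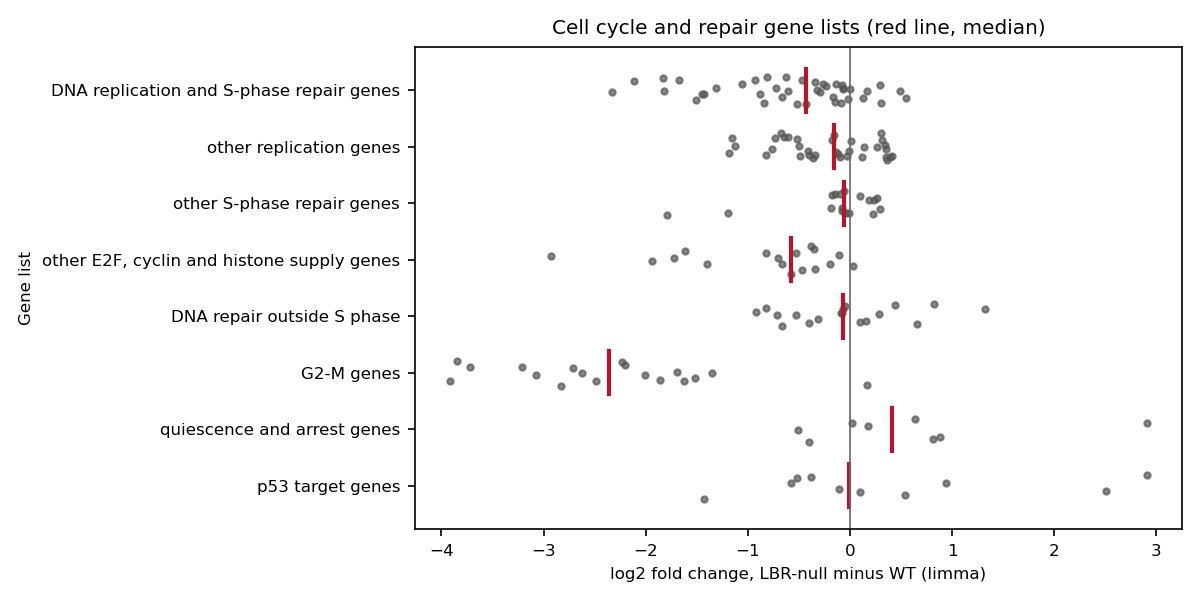
log2 fold change (limma, LBR-null minus WT) of each tested gene in 8 lists, 1 point per gene with vertical jitter, and the median as a red line. The DNA replication and S-phase repair genes have a median of -0.43 and the G2-M genes one of -2.36, and quiescence and arrest genes have a median of 0.41.

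Among all genes tested, 14.5% were at least 2-fold higher and 7.04% lower, and 25.5% had every LBR-null library above WT and 25.7% below. Of 8 quiescence and arrest genes tested, 1 was at least 2-fold higher, 3 had every LBR-null library above WT and 1 had every one below, and the median log2 fold change was 0.41. The 3 were Cdkn1a (p21), at 3639 ± 1450 normalized counts (SD, n = 3) against 459, Cdkn1b (p27), at 2117 ± 389 against 1138, and the pocket protein gene Rbl2, at 1748 ± 340 against 985. The 1 below was Cdkn1c (p57), at 2509 ± 910 against 3385, and the retinoblastoma gene Rb1 was at 958 ± 137 against 937, both named after their values were seen. For Cdkn1a the limma adjusted p was 0.0843 and the DESeq2 adjusted p 5.88e-08. Of 10 p53 target genes, which include Cdkn1a, 2 were at least 2-fold higher and 1 lower, with a median of -0.01: Trp53inp1 was at 5179 ± 1924 against 860 and Phlda3 at 137 ± 25 against 366. p53 targets thus did not share a direction.

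Markers of other cell types were set beside the members, and they did not share a direction. Among all genes tested, 14.5% were at least 2-fold higher and 7.04% lower. All LBR-null libraries lay above WT for 25.5% of genes and below it for 25.7%. Summed over 7 neutrophil markers measured, levels were 442 to 2468 normalized counts in the LBR-null mice and 184 in WT, and 6 of the 7 were at least 2-fold higher. The other, Mmp9, named after its values were seen, was at 31.9 ± 27.2 (SD, n = 3) against 96.3. Its LBR-null libraries were all below WT. Over 8 macrophage markers the sums were 2341 to 2741 against 3921, and over 9 T and B cell markers 179 to 290 against 368. Of these 9, 8 had a log2 fold change below 0, beside 49.5% of all genes. Cd8a was at 45.2 ± 22.5 (SD, n = 3) against 135 and Cd3d at 5.45 ± 0.989 against 14.3. Cd3e went the other way, at 27.6 ± 8.31 against 11.6, with every LBR-null library above WT. Over 10 marrow progenitor markers the sums were 2294 to 2919 against 2766, made up mainly of Kit and Cd34 (named after their values were seen). Of the 7 tested, 4 were at least 2-fold higher, among them the granule gene Ngp, at 94.7 ± 78.4 (SD, n = 3) against 2.09. Over 8 erythroid markers the sums were 1787 to 2782 against 4203, with 3 globin genes at 0 in every library. Over 9 endothelial and stromal markers they were 23542 to 30877 against 51219, and 3 of the 9, the collagen genes Col1a1, Col1a2 and Col3a1, were at least 2-fold lower. The endothelial markers Pecam1 and Kdr were at 1.03 and 0.995 of WT, and Flt1 was at 1.59 of WT with every LBR-null library above it, all named after their values were seen. Sums over 8 nephron progenitor markers were 894 to 1085 against 1254, with Six2, also named after its values were seen, at no more than 3.65 in any library. Of the 7 tested, 4 had a log2 fold change below 0 and 3 above, with a median of -0.11. Crym, at 177 ± 16.4 (SD, n = 3) against 533, and Cited1, at 46.3 ± 26.9 against 109, were at least 2-fold lower, and Lhx1, at 323 ± 31.9 against 229, had every LBR-null library above WT. Kidney markers were present in every mouse, and 9 proximal tubule markers summed to 139692 to 188607 against 190796. Of these 9, 4 were at least 2-fold lower and 1 higher, 5 had every LBR-null library below WT and 3 every one above, and the median log2 fold change was -0.98. The anion transporter Slc22a6, the farthest from WT, was at 409 ± 126 (SD, n = 3) against 7282, and the lactate transporter Slc5a12, named after its values were seen, was at 11677 ± 3408 against 4580. Over 10 markers of other nephron segments the sums were 95303 to 179365 against 114895. The part of these cell types in the lower levels of the members was not tested.

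The Lbr gene itself had 322, 340 and 471 normalized counts in the LBR-null mice and 398 in WT, so its RNA level did not check the genotypes. Sex is not labelled. Xist was at 5785 in mouse 4001 and 9940 in mouse 4007, but at 65.3 in mouse 4002 and 35.5 in WT, and mouse 4001 also had 141 normalized counts of the Y-linked Ddx3y, against 44.3 in mouse 4007, 1516 in mouse 4002 and 1284 in WT. With mouse 4002, nearest to WT in both, as the only LBR-null mouse, 11 members were at least 2-fold lower, beside 7.2% of all genes tested, and 0 were higher, beside 11.8%. This sets 1 library against 1 mouse, with no replicate check. Without mouse 4001 the counts were 10, beside 7.47%, and 0, beside 13.6%. The part of sex in the levels of the members was not tested.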

How the data were processed

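Kidney poly(A) RNA was sequenced from 3 LBR-null mice and 1 WT littermate in 7 libraries. Per the submitters' processing notes and methods, STAR 2.6.0 placed the reads on mm9, and the deposited signal of a gene is its read count over the size factor from DESeq2 1.25.1, in 1 file a library. The counting program, its annotation and its use of strand are not given in the sources used here. All values were whole multiples of 1 read within 0.01 read (100% of values), so the reads were recovered by division.

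Libraries were averaged within a mouse. limma 3.58.1 (R 4.3.3, eBayes with a trend) was run on log2(normalized counts + 1) on the 17283 genes whose mean reached 5. It had 2 residual degrees of freedom and took the single WT mouse to vary like the LBR-null mice. Genes were called at 2-fold with an adjusted p under 0.05. edgeR 4.0.16 (quasi-likelihood) and DESeq2 1.42.0 were run on recovered reads summed per mouse, and DESeq2 gave 671 genes no adjusted p. Other alternatives were a pseudocount of 5, scaling to equal totals or by TMM, no filter on low genes, libraries as units with or without a replicate block, and leaving out single mice or WT libraries. Fits were tested on simulated data. Fold changes of low genes are understated on this scale.

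The members and all gene lists were chosen with earlier results of these data known. All members were described, with values per library for those whose libraries did not overlap between groups and whose unadjusted p was under 0.05 or fold at least 2, and for the largest and smallest difference in each role. From each other list, up to 3 genes, those with the largest fold change among genes with non-overlapping libraries, were named by rule. Bub1b, Cdkn1c, Rb1, Mmp9, Pecam1, Kdr, Flt1, Six2, Kit, Cd34 and Slc5a12 were named after their values were seen. The named genes of the other S-phase repair list are not reported here. Gene positions and transcript lengths come from GENCODE vM1 models on mm9, and 14 members share exon bases with other genes. Promoters come from RefSeq.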

Additional observations from a re-analysis of the deposited data

Results flagged for a closer look

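Of the 41 members, 1 had a library far from the others of its group. Mcm7 had 631 normalized counts in the only library of LBR-null mouse 4002, and the gap to the next library was 0.847 of the range of the 5 LBR-null libraries, above the limit of 0.71. The other 4 libraries, from 2 mice, lay between 906 and 956, and the WT libraries at 732 and 751. Chance flags about 1 in 20 such groups, and libraries of a mouse are not independent.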

How the results depend on the processing

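The median log2 fold change of the members was -0.43 and lay between -0.54 and -0.39 without single LBR-null mice or WT libraries. The count at least 2-fold lower was 10 and ranged from 10 to 11 under every alternative run for it, and that of higher members was 0 under each. The number of members called by limma was 0, and 0 to 4 without single mice or WT libraries, 6 with DESeq2 and 10 with the 7 libraries as units, where 6.18% of all genes were called lower. With the library number as a replicate block over 6 libraries, 9 members were called, beside 6.56% of all genes called lower, 21 were at an unadjusted p under 0.05 and lower, and 1 was higher, while the units without the block gave 22 lower. Libraries of a mouse are not independent replicates, and the number does not pair mice: the differences between libraries 1 and 2 correlated at -0.04 to -0.006 between mice. Members at an unadjusted p under 0.05 and lower numbered 12, and 7 to 16 without single mice or WT libraries, the lowest being without mouse 4007. Higher members at that limit numbered 0 to 1. Members above WT in every library numbered 2, and 2 to 5 without single mice, the highest being without mouse 4001, and 6 with mouse 4002 alone, an alternative chosen after seeing the data, which also gave 34 members below WT. With that 1 library, 46.4% of all genes lay above WT and 44.3% below, so these counts are not comparable with those over 5 libraries. For single genes, Gins1 turned from -0.02 to 0.01 with edgeR and 0.02 with DESeq2, and ranged from -0.26 to 0.16 without single mice or libraries, as Cdt1 did from -0.26 to 0.14 (above 0 without mouse 4002) and Pole from -0.27 to 0.16 (above 0 without mouse 4002 or WT library 2). The cause was not tested. Equal totals and TMM scaling moved the median of all genes by no more than 0.03, to 0.00 and -0.02. Low counts limit E2f8, Clspn, Chek1 and Ccne1 most.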
